A study of Canis lupus familiaris with 29 samples.

Results

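The nuclear-encoded subunits of oxidative phosphorylation were followed through normal canine adrenal medulla and canine pheochromocytoma and paraganglioma (PPGL). Members were all genes of the exon count table whose symbol begins with NDUFA, NDUFB, NDUFC, NDUFS or NDUFV and a digit, with UQCR, with COX and a digit from 4 to 8 and a letter, or with ATP5. The pattern found 52 of 30951 genes, of which 28 belong to complex I, 5 to complex III, 9 to complex IV and 10 to complex V, assigned by symbol alone. The study sequenced the mRNA of 29 samples from dogs: 10 normal adrenal medullas (NAM) and 19 PPGLs, of which 7 form PPGL group 1 and 12 form PPGL group 2. The NAMs came from healthy dogs. The tumors came from client-owned dogs at several clinics, removed at surgery or after euthanasia, so tumor cannot be told apart from the dog's origin and handling. Nearly every tumor was a pheochromocytoma, the tumor of adrenal chromaffin cells, and a paraganglioma completed the series. The labels give no age, breed, sex or tumor genotype. The study left out tumors that stood apart from the rest. The study drew groups 1 and 2 from a principal component analysis of these same samples, so every test that uses the groups describes that split.

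Oxidative phosphorylation is carried out in the inner mitochondrial membrane. Complexes I, III and IV pass electrons from NADH to oxygen and pump protons, and complex V, the ATP synthase, lets the protons return and makes ATP. Most subunits are nuclear genes, while a core of complexes I, III, IV and V is encoded by mitochondrial DNA. Loss of complex II, succinate dehydrogenase, is a known inherited cause of PPGL in people, and several subunits have alternative isoforms that are used in particular tissues or in low oxygen.

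The total gene count per sample lay between 19258054 and 35918182 in NAM, between 18493540 and 31919833 in group 1 and between 18208718 and 24569667 in group 2. Levels are given as CPM, each gene's count over a common library total, scaled with edgeR's TMM factors. A gene with no count in a sample can still hold up to 3 counts, which is 0.0835 to 0.165 CPM, a limit for counting error only. The members together took 0.634% to 0.894% of all counts in NAM, 0.597% to 0.939% in group 1 and 0.583% to 0.848% in group 2. The ranges overlapped in all 3 groups.

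The tissue labels were checked against 12 chromaffin cell markers and 11 markers of the adrenal cortex, the steroid-producing layer around the medulla. The summed chromaffin markers lay at 18169.6 to 97989.8 CPM (median 32617) in NAM, 8308 to 119421 CPM (median 36102) in group 1 and 21565 to 106058 CPM (median 50690) in group 2, with the secretory granule protein CHGB the most abundant. The groups overlapped widely, but 3 tumors of group 1 were low in several markers, counted as such when under 10% of the lowest NAM. In tumor 3 TH, PNMT and DDC were among them, with TH, the first enzyme of catecholamine synthesis, at 10.8 CPM against at least 1057 CPM in NAM. In tumor 5 TH, PNMT, DDC and SLC18A2 were among them, with TH at 2.15 CPM. In tumor 7 they were PNMT, CHGB, SCG2, SLC18A1 and SLC18A2, with CHGB at 27.1 CPM against at least 5688 CPM in NAM. No other tumor had more than 2 low markers, so these 3 are called the marker-low tumors. Counts of calls are given with and without them, a choice made after seeing the data.

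The NAMs carried much RNA of the cortex. Summed cortex markers lay at 14133 to 69306 CPM (median 37425) in NAM, 97.8 to 1172 CPM (median 276) in group 1 and 256 to 34456 CPM (median 3691) in group 2, and CYP17A1, a steroid hydroxylase, was the most abundant. In 18 of 19 PPGLs the sum lay below every NAM, and the exception was tumor 10 of group 2 with 34456 CPM. No cortex marker was at 0 in NAM or group 2, while up to 4 of 11 were at 0 in a tumor of group 1, namely CYP11A1, HSD3B2, MC2R and MRAP. Of the 11 markers, 10 fell in PPGL against NAM, with median log2 fold change (FC) -3.19. INHA changed by -3.55 (adjusted p = 9.07e-06), STAR by -3.19 (adjusted p = 6.78e-05), FDX1 by -3.15 (adjusted p = 0.000123) and SCARB1 by -3.15 (adjusted p = 0.000146) on the log2 scale by edgeR QL. Steroid-producing cells are rich in mitochondria, and the part of cortex content in the differences from NAM was not tested. In bulk samples, fewer cells of a type and less RNA per cell cannot be told apart.

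Of the 52 members, 51 passed the filter on low counts and were tested. The exception, ATP5MD, which matches a small accessory subunit of the ATP synthase, reached 0.0394 CPM in NAM 10, 0.0422 CPM in tumor 1 and 0.0481 CPM in tumor 7 of group 2, was at 0 in the other samples and averaged 0.0253 CPM per kb of exon over all samples. RefSeq, by symbol or synonym in its dog assembly UU_Cfam_GSD_1.0, held 50 of the members and placed 49 of them on the same chromosome as the count table, which uses CanFam3.1. The other, NDUFB6 (ENSCAFG00000004456, chr22:3526115-3526501), has 1 exon block, as do COX7B2 and ATP5MD, and RefSeq places it on another chromosome, so its counts are uncertain. ATP5MD and ATP5PB were not matched in RefSeq, so the place of their rows was not checked. RefSeq lists 70 protein-coding symbols of this pattern and 50 were found by name in the table. Among those not found by name, and so not analysed here, were COX6A1, COX6B1, COX6B2, COX7A2, COX8B, COX8C, NDUFA4, ATP5MC2 and ATP5MC3. The exons of 11 members share bases with another gene, and since no source states whether counting used strand, their values are uncertain. NDUFA13 overlaps CILP2, UQCRC1 overlaps COL7A1 and COX8A overlaps NAA40 on the same strand. On the opposite strand lie, among others, MORN5 at NDUFA8, TATDN1 at NDUFB9, KBTBD4 at NDUFS3, GDF9 at UQCRQ, EMC8 at COX4I1, ITGAM at COX6A2 and KIN at ATP5F1C.

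Levels of different members were compared as mean CPM per kb of exon over all 29 samples. In complex I the highest was NDUFA4L2, counted here by its symbol although NDUFA4, its paralog, is now placed in complex IV, with 534 CPM per kb, and the lowest was NDUFS4, an accessory subunit near the NADH-oxidizing end, with 17.9 CPM per kb. In complex III UQCRFS1, the Rieske iron-sulfur protein, led with 182 CPM per kb and UQCRC1 was lowest with 56.3 CPM per kb. Complex IV ranged from 1.57 CPM per kb for COX6A2, the isoform of heart and skeletal muscle, to 311 CPM per kb for COX4I2, beside 282 CPM per kb for COX4I1. These means pool tumors and NAM, and per kb COX4I1 was the higher of the pair in every NAM. In complex V the highest was ATP5F1E, the small epsilon subunit, with 561 CPM per kb over only 165 bases of exon. The catalytic subunit ATP5F1B followed with 501 CPM per kb and its partner ATP5F1A with 316 CPM per kb. Some ranks differed within a group: by mean CPM per kb ATP5F1B exceeded ATP5F1E and COX7B2 was below COX6A2 in NAM, while in PPGL NDUFS6 was below NDUFS4 and UQCRQ above UQCRFS1.

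The comparison of all PPGLs with NAM asked how the tumors differ from their tissue of origin. More members fell than rose and the isoform COX4I2 rose by more than any other member called. Of 51 members tested, 16 fell (31.4%, against 15.2% of all 14766 genes tested) and 6 rose (11.8%, against 22.3% of all genes), by edgeR's quasi-likelihood test (QL) at an adjusted p under 0.05. The median log2 FC of the members was -0.15 and that of all genes was 0.13. In 34 of 51 members (66.7%) the log2 FC was below 0, against 41.0% of all genes. No member had all PPGLs below every NAM, which held for 0.481% of all genes, or all PPGLs above every NAM, which held for 0.223%. No member reached a log2 FC past 3 in size, which the study also asked of its genes. Without the 3 marker-low tumors 17 members were lower, 15 of them among the 16, and 8 were higher, including all 6.

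Cortical content moved with this comparison. The cortical score, the mean log2 CPM of the 11 cortex markers, lay between 8.94 and 11.2 in NAM, between 0.0435 and 3.79 in group 1 and between 3.08 and 9.93 in group 2, so it hardly overlaps between tumor and NAM. With the score as a covariate, 3 members were higher and 4 lower, and all 7 were among the 22 called without it. COX4I2 had log2 FC 1.92, NDUFA4L2 1.47 and COX7A1 0.79. UQCRC1 had -0.82, NDUFS8 -0.86, COX7A2L -0.76 and COX4I1 -0.58. The other 15 calls were lost. Some of their log2 FCs changed little, such as NDUFA13 with 0.55 beside 0.48 and NDUFB11 with -0.45 beside -0.56. Most of the others shrank, such as NDUFS6 with -0.16 beside -0.59, NDUFA12 with -0.12 beside -0.43 and ATP5PB with -0.31 beside -0.63. Over all genes the calls went from 3295 higher and 2246 lower to 1110 higher and 895 lower. Tumor 10 of group 2, whose cortex markers lay within the range of NAM, had NDUFS8 at 95.8 CPM and UQCRC1 at 199 CPM, both within the range of NAM. In the same tumor all members that fell, except COX7A2L and UQCRC2, lay within the range of NAM. COX7A2L at 72.2 CPM and UQCRC2 at 125 CPM lay below every NAM. All members that rose, except NDUFA4L2 at 262 CPM, lay above every NAM there. They were COX4I2 at 133 CPM, NDUFA8 at 176 CPM, NDUFA13 at 66.5 CPM, COX7A1 at 53.2 CPM and ATP5PF at 56.3 CPM.

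**Figure D1:**
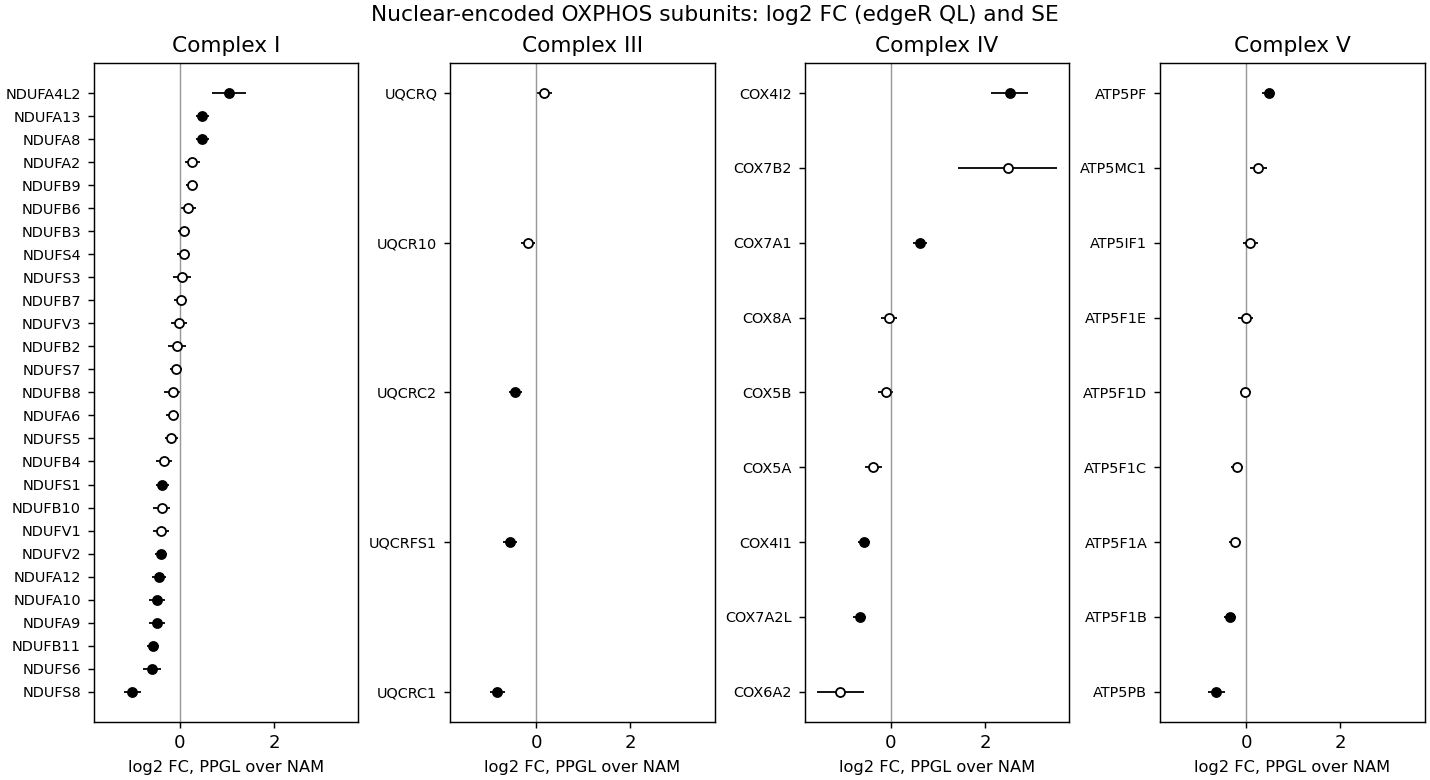
The log2 FC of PPGL over NAM (x axis) of 50 of the 51 members tested, by complex, with the SE as a bar and filled points for members past an adjusted p of 0.05 by edgeR QL. Not every member is drawn, and of the called members COX4I2 stands farthest from 0 at 2.52.

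Complex I takes electrons from NADH through flavin and iron-sulfur clusters held by its core subunits. Of its 28 members 9 fell (32.1%, against 15.2% of all genes) and 3 rose (10.7%, against 22.3%), with median log2 FC -0.15. The 7 nuclear core subunits had median -0.39 and 4 of them fell. The other 21 members, mostly accessory subunits around the core, had median -0.06, and 5 fell and 3 rose. NDUFS8 (ENSCAFG00000011083, chr18:49796560-49799979), an iron-sulfur core subunit, had 70.6 to 152 CPM (median 123) in NAM, 33.8 to 92.7 CPM (median 57.7) in group 1 and 29.7 to 102 CPM (median 47.2) in group 2. The ranges overlapped, but 14 of 19 PPGLs lay below every NAM. Means were 117 ± 29.5 CPM (SD, n = 10) in NAM and 58.0 ± 22.8 CPM (SD, n = 19) in PPGL, and the log2 FC was -1.01 (SE 0.19, adjusted p = 0.000134 by edgeR QL). NDUFS1, the largest iron-sulfur subunit, changed by -0.37 (SE 0.13, adjusted p = 0.0302 by edgeR QL), with 5 of 19 PPGLs below every NAM. The call of NDUFS1 was lost without NAM 6, 7 or 8 (adjusted p = 0.0512, 0.069 and 0.0589), without the 3 marker-low tumors (0.0543), with library sizes in place of TMM factors (0.082) and with the replicate block (0.0872), as well as with the cortical score. The replicate block takes the sample number as a factor, and these numbers do not pair animals. A call lost with it may reflect only the added terms of that fit. NDUFV2, beside the flavin, had -0.40 (adjusted p = 0.0126 by edgeR QL), with 0 of 19 PPGLs below every NAM. NDUFV1, which binds the flavin, was not called with -0.39 (adjusted p = 0.0746 by edgeR QL). It was called without group 1 tumor 4 (0.0209), without group 1 tumor 6 (0.0488), without the 3 marker-low tumors (0.0377) and by the Mann-Whitney U-test (0.0345). With the cortical score its log2 FC was -0.68, not called (adjusted p = 0.0668 by edgeR QL).

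Among the accessory subunits that fell, NDUFS6, which lies near the NADH-oxidizing end, had 41.4 to 77.5 CPM (median 59.1) in NAM, 25.1 to 53.7 CPM (median 32.7) in group 1 and 17.6 to 83.7 CPM (median 38.9) in group 2. In 12 of 19 PPGLs it lay below every NAM, and the log2 FC was -0.59 (SE 0.19, adjusted p = 0.0165 by edgeR QL). NDUFB11, of the membrane arm, changed by -0.56 (SE 0.13, adjusted p = 0.00111 by edgeR QL), with 10 of 19 PPGLs below every NAM. NDUFA9, at the junction of the arms, changed by -0.49 (SE 0.17, adjusted p = 0.0244 by edgeR QL), with 9 of 19 below. NDUFA10 with -0.48 (adjusted p = 0.0221) and NDUFA12 with -0.43 (adjusted p = 0.0217) completed the 5 by edgeR QL, with 5 and 7 of 19 PPGLs below every NAM. These 2 and NDUFV2 fell outside the naming rule and were named after their values were seen. NDUFA12 was not called without NAM 8 (adjusted p = 0.0505). NDUFS4, the lowest member of the complex per kb, had log2 FC 0.08 (adjusted p = 0.668 by edgeR QL) and was not called.

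The 3 members of complex I that rose were NDUFA4L2, NDUFA13 and NDUFA8. NDUFA4L2 (ENSCAFG00000000200, chr10:1362577-1364515), a target of hypoxia-inducible factor in other tissues, had 114 to 281 CPM (median 151) in NAM, 5.88 to 457 CPM (median 207) in group 1 and 262 to 699 CPM (median 425) in group 2. Of 19 PPGLs 14 lay above every NAM, while tumors 2 and 7 of group 1, with 5.88 and 87.7 CPM, lay below every NAM. The log2 FC was 1.05 (SE 0.36, adjusted p = 0.0212 by edgeR QL). NDUFA13, a membrane arm subunit also known as GRIM-19, changed by 0.48 (SE 0.14, adjusted p = 0.007 by edgeR QL), with 14 of 19 PPGLs above every NAM. NDUFA8, on the intermembrane side of the complex, changed by 0.48 (SE 0.14, adjusted p = 0.00798 by edgeR QL), with 12 of 19 above. NDUFA13 and NDUFA8 share exon bases with CILP2 and MORN5, so their values are uncertain.

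Complex III passes electrons from ubiquinol to cytochrome c. Of its 5 members 3 fell (60%, against 15.2% of all genes), and UQCRQ and UQCR10 were not called. The median log2 FC was -0.44. UQCRC1 (ENSCAFG00000012329, chr20:40506907-40520110), a core scaffold protein, had 153 to 353 CPM (median 238) in NAM, 59.1 to 249 CPM (median 148) in group 1 and 86.0 to 199 CPM (median 121) in group 2. Groups overlapped only in part, with 15 of 19 PPGLs below every NAM. Means were 239.9 ± 61.0 CPM (SD, n = 10) in NAM and 136 ± 44.2 CPM (SD, n = 19) in PPGL, and the log2 FC was -0.82 (SE 0.16, adjusted p = 0.00032 by edgeR QL). UQCRFS1, which carries the Rieske cluster, changed by -0.55 (SE 0.14, adjusted p = 0.00379 by edgeR QL), with 10 of 19 PPGLs below every NAM. UQCRC2, the second core protein, named after its value was seen, had -0.44 (adjusted p = 0.0201 by edgeR QL), with 10 of 19 PPGLs below every NAM. UQCRC1 shares exon bases with COL7A1 on the same strand, so its value is uncertain.

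Complex IV, cytochrome c oxidase, reduces oxygen, and its COX4 subunit exists as the common COX4I1 and as COX4I2, an isoform found in lung and induced by low oxygen in several cell types. Of its 9 members 2 fell, COX4I1 and COX7A2L, and 2 rose, COX4I2 and COX7A1, with median log2 FC -0.11. That is 22.2% in either direction, where 15.2% of all genes fell and 22.3% rose, so the count of rises was near that of all genes. COX4I2 (ENSCAFG00000007049, chr24:21120213-21128320) had 29.3 to 76.4 CPM (median 42.3) in NAM, 27.0 to 682 CPM (median 204) in group 1 and 129 to 566 CPM (median 241) in group 2. All 12 tumors of group 2 and 5 of 7 of group 1 lay above every NAM, tumor 1 of group 1 with 72.1 CPM lay within NAM, and tumor 7 of group 1 with 27.0 CPM lay below. Means were 50.2 ± 18.4 CPM (SD, n = 10) in NAM and 288 ± 190.3 CPM (SD, n = 19) in PPGL, a ratio of 5.74, and the log2 FC was 2.52 (SE 0.38, adjusted p = 1.4e-05 by edgeR QL). COX4I1 (ENSCAFG00000019921, chr5:66883732-66891500) had 179 to 311 CPM (median 267) in NAM, 143 to 258 CPM (median 195) in group 1 and 106 to 232 CPM (median 144) in group 2. Its ranges overlapped, with 12 of 19 PPGLs below every NAM, and the log2 FC was -0.56 (SE 0.13, adjusted p = 0.00133 by edgeR QL). COX4I1 shares exon bases with EMC8 on the opposite strand, so its value is uncertain.

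As a share of both COX4 genes, per kb of exon, COX4I2 made up 9.26% to 29.2% in NAM (median 14.9%), 17.0% to 83.6% in group 1 (median 53.1%) and 37.6% to 80.8% in group 2 (median 65.9%). The share exceeded that of each NAM in 18 of 19 PPGLs, and tumor 7 of group 1 was the exception. Among the NAMs, samples 3, 4, 5 and 10 had the highest COX4I2, from 67.3 to 76.4 CPM against at most 45.3 CPM in the others. These same NAMs had the lowest cortical scores, from 8.94 to 9.72 against at least 10.1 in the others. They also had the lowest NDUFS8, from 70.6 to 93.4 CPM against at least 119.8 CPM. The same NAMs had the highest summed chromaffin markers, from 49514 to 97989.8 CPM against at most 34204 CPM. COX4I2 and NDUFA4L2 are also known from pericytes, the cells around capillaries. The summed pericyte and smooth muscle markers, led by RGS5, lay at 394 to 1625 CPM (median 904) in NAM, 268 to 4014 CPM (median 1783) in group 1 and 793 to 5173 CPM (median 1659) in group 2. The highest among the NAMs were again samples 3, 4, 5 and 10, from 1085 to 1625 CPM against at most 1053 CPM. In 11 of 19 PPGLs that sum was above every NAM, and tumor 7 of group 1, the lowest for COX4I2, also had the lowest sum. Other tumors did not follow this order. Tumor 1 of group 1 had a sum of 4014 CPM with COX4I2 at 72.1 CPM, within NAM. Tumor 11 of group 2 had the highest sum, 5173 CPM, with COX4I2 at 242 CPM. The highest COX4I2, 682 CPM in tumor 5 of group 1, came with a sum of 1916 CPM. Tumor 2 of group 1 had NDUFA4L2 at 5.88 CPM with a sum of 2099 CPM. Of the 8 pericyte and smooth muscle markers 0 rose and 1 fell in group 1 against NAM (median log2 FC 0.11) by edgeR QL. Of all genes 21.0% rose and 14.1% fell there. In group 2 against NAM 3 rose and 0 fell (median 0.81), beside 18.4% and 14.5% of all genes. No pericyte or smooth muscle marker was at 0 in any sample, and the part of cortex or pericyte content in the COX4I2 difference was not tested.

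**Figure D2:**
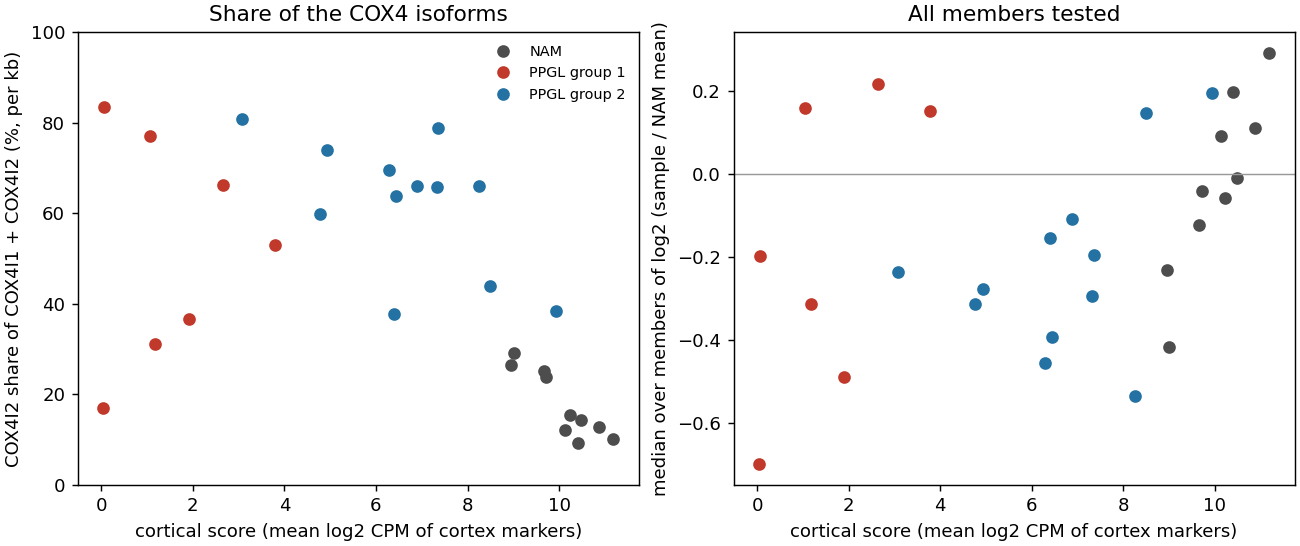
Each point is a sample (colored by NAM, group 1 or group 2 of the PPGLs), placed by its cortical score (x axis, mean log2 CPM of 11 cortex markers) against its COX4I2 share of COX4I1 and COX4I2 (left, percent, per kb) and against the median over the members tested of the log2 ratio to the NAM mean (right). The share exceeds the highest NAM, 29.2%, in 18 of 19 PPGLs.

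COX7A2L, a relative of the COX7A subunits that joins complex III to complex IV, had 79.9 to 109.7 CPM (median 92.3) in NAM, 40.2 to 93.7 CPM (median 63.4) in group 1 and 34.7 to 80.8 CPM (median 54.9) in group 2. In 16 of 19 PPGLs it lay below every NAM, and the log2 FC was -0.66 (SE 0.14, adjusted p = 0.00051 by edgeR QL). COX7A1, the isoform of heart and skeletal muscle, had 20.6 to 45.4 CPM (median 34.01) in NAM, 31.6 to 80.5 CPM (median 48.9) in group 1 and 40.8 to 78.3 CPM (median 46.8) in group 2. Its ranges overlapped, 10 of 19 PPGLs lay above every NAM, and the log2 FC was 0.61 (SE 0.15, adjusted p = 0.00176 by edgeR QL). The other muscle isoform, COX6A2, was low, with 0.255 to 3.38 CPM in NAM, 0 to 1.51 CPM in group 1 and 0.289 to 2.43 CPM in group 2, and its log2 FC was -1.07 (SE 0.50, adjusted p = 0.0916 by edgeR QL). It was called without group 2 tumor 12 (adjusted p = 0.0312 by edgeR QL). COX5A and COX5B, subunits on the matrix side, had log2 FC -0.37 and -0.11 (adjusted p = 0.0968 and 0.629 by edgeR QL), and COX5A was called without group 1 tumor 4 (0.0431). COX8A had -0.03 (adjusted p = 0.904 by edgeR QL), which turned to 0.02 with library sizes alone. None of these 4 was called.

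COX7B2, a paralog of COX7B, lay at 0.243 to 0.763 CPM (median 0.403) in NAM. It reached 37.0 CPM in tumor 6 of group 1, 2.93 CPM in tumor 1 and 1.86 CPM in tumor 4, while the other tumors of both groups lay at most at 0.842 CPM. Its log2 FC in PPGL against NAM was 2.48 (SE 1.06, adjusted p = 0.0638 by edgeR QL), not called. Without tumor 6 of group 1 the log2 FC was 0.29. It was called without tumor 7 of group 1 (adjusted p = 0.0477) and without the 3 marker-low tumors (0.0384).

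Complex V, where the proton flow drives ATP synthesis, had a median log2 FC of -0.01 over 9 members tested. Of these 2 fell (22.2%, against 15.2% of all genes) and 1 rose (11.1%, against 22.3%). ATP5PB, subunit b of the peripheral stalk that holds the catalytic head, had 209 to 430 CPM (median 327) in NAM, 106 to 317 CPM (median 173) in group 1 and 109.9 to 348 CPM (median 218) in group 2. In 11 of 19 PPGLs it lay below every NAM, and the log2 FC was -0.63 (SE 0.17, adjusted p = 0.00547 by edgeR QL). ATP5PF, also of the peripheral stalk, went the other way, with 25.9 to 42.9 CPM (median 35.9) in NAM, 39.5 to 80.3 CPM (median 48.5) in group 1 and 33.4 to 67.4 CPM (median 45.9) in group 2. In 13 of 19 PPGLs it lay above every NAM, and the log2 FC was 0.48 (SE 0.14, adjusted p = 0.00678 by edgeR QL). The catalytic ATP5F1B changed by -0.35 (SE 0.13, adjusted p = 0.03 by edgeR QL), with 5 of 19 below every NAM. That call was lost without NAM 1, 6 or 8 (adjusted p = 0.051, 0.0584 and 0.0788), with library sizes (0.0736), with the replicate block (0.0973) and with the cortical score. ATP5F1A, its partner in the head, had -0.23 (adjusted p = 0.165 by edgeR QL). ATP5IF1, the inhibitor that blocks ATP hydrolysis, had 0.10 (adjusted p = 0.67 by edgeR QL), and ATP5MC1, a gene for the rotating c ring, had 0.26 (adjusted p = 0.237 by edgeR QL). ATP5F1E had -0.00253 (adjusted p = 0.991 by edgeR QL), with a sign that changed with the scaling.

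**Figure D3:**
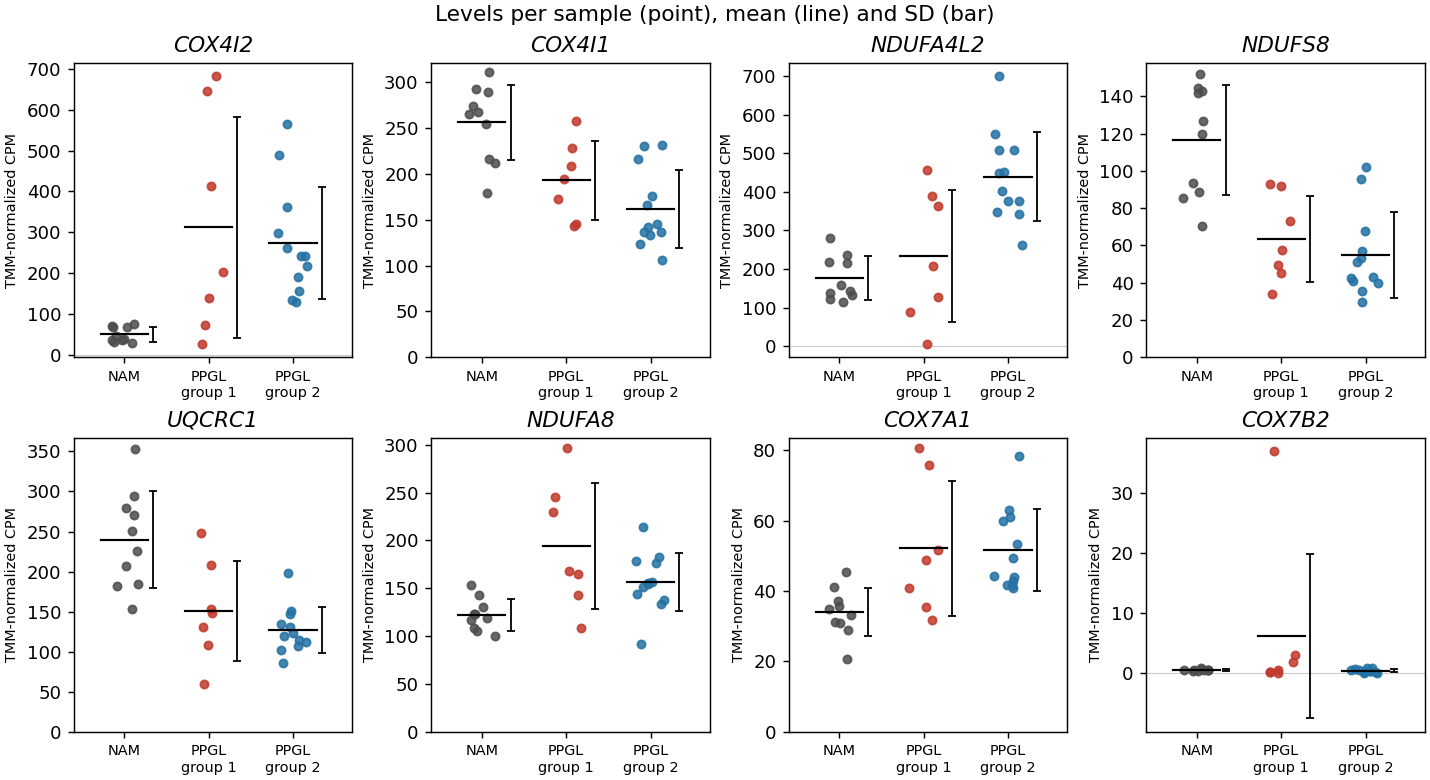
Level of 8 members in each sample (points, TMM-normalized CPM on a linear y axis) in NAM and in both PPGL groups, with the group mean as a line and the SD as a bar. COX4I2 spans 27.0 to 682 CPM in PPGL against at most 76.4 CPM in NAM, and COX7B2 stands out in a single tumor at 37.0 CPM.

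Each tumor group was then compared with NAM in a fit with 3 groups. The comparisons share the 10 NAMs and are given side by side. In group 1, 11 of 51 members fell (21.6%, against 14.1% of all 15201 genes tested) and 7 rose (13.7%, against 21.0%), with median log2 FC -0.13 beside 0.13 for all genes. In group 2, 11 fell (21.6%, against 14.5%) and 4 rose (7.84%, against 18.4%), with median -0.17 beside 0.09. With library sizes in place of TMM factors the counts were 7 lower and 8 higher in group 1 and 9 lower and 6 higher in group 2, and the median of all genes in group 1 moved to 0.24. Without the 3 marker-low tumors group 1 had 6 lower and 8 higher and group 2 had 14 lower and 4 higher. By complex, 6 of complex I fell and 2 rose in group 1, and again 6 fell and 2 rose in group 2. In complex III 3 fell in group 1 and 2 in group 2.

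NDUFS8, UQCRC1, COX7A2L, UQCRFS1, ATP5PB and NDUFB11 were among the members that fell in both groups. NDUFS8 had log2 FC -0.88 in group 1 and -1.09 in group 2, and UQCRC1 had -0.68 and -0.92. COX7A2L had -0.54 and -0.74, and ATP5PB had -0.84 and -0.52. COX4I2, COX7A1 and NDUFA13 rose in both groups. These calls are those of edgeR QL with TMM factors. In group 1 the Mann-Whitney U-test did not call COX7A1 (adjusted p = 0.0704), NDUFA13 (0.118), UQCRC1 (0.0585), UQCRFS1 (0.0585) or NDUFB11 (0.0513). With library sizes COX7A2L and UQCRFS1 were not called in group 1 (adjusted p = 0.0511 and 0.0517), nor ATP5PB in group 2 (0.0543). The replicate block, fitted by edgeR QL, also lost calls among these members. Its sample numbers do not pair animals, so these losses may reflect only the added terms of that fit. In group 1 they were UQCRC1 (adjusted p = 0.0702), COX7A2L (0.106), UQCRFS1 (0.14), NDUFB11 (0.139), COX7A1 (0.0772) and NDUFA13 (0.0597). In group 2 they were ATP5PB (0.0648) and NDUFA13 (0.064). With the cortical score as a covariate 0 members were lower in either group by edgeR QL (0 in group 1 and 2 in group 2 at an unadjusted p under 0.05). In group 1 the log2 FC then turned positive for NDUFS8, UQCRC1, UQCRFS1 and NDUFB11, with 0.57, 0.23, 0.61 and 0.69. In group 2 NDUFS8 had -0.53 (adjusted p = 0.269), UQCRC1 -0.56 (0.201), COX7A2L -0.68 (0.0698), UQCRFS1 -0.11 (0.809), ATP5PB -0.32 (0.543) and NDUFB11 -0.17 (0.611). COX4I2 had 2.63 (adjusted p = 3.95e-05) in group 1 and 2.44 (adjusted p = 6.29e-05) in group 2 by edgeR QL. Its call was lost in group 1 by the Mann-Whitney U-test (adjusted p = 0.0704), and in both groups with the cortical score as a covariate, where its log2 FC was 0.47 (0.91) and 1.55 (0.0577). COX7A1 had 0.61 and 0.60. Other members passed the threshold of that test in a single group. NDUFV1 had -0.06 (adjusted p = 0.847) in group 1 and -0.64 (adjusted p = 0.00479) in group 2, and COX4I1 had -0.41 (0.0504) and -0.67 (0.000783), where DESeq2's Wald test called COX4I1 in group 1 as well (0.0266). NDUFA4L2 had 0.41 (adjusted p = 0.455) in group 1 and 1.32 (adjusted p = 0.0061) in group 2. Its call in group 2 was lost with the cortical score (log2 FC 0.94, adjusted p = 0.28 by edgeR QL). Without the 3 marker-low tumors its log2 FC in group 1 was 0.00146. The largest log2 FC in group 1 was that of COX7B2, 3.78 (adjusted p = 0.00273), beside -0.34 (0.778) in group 2. Its level in group 1 was far highest in tumor 6, and the Mann-Whitney U-test did not call it. By edgeR QL COX7B2 lost its call in group 1 with the replicate block (log2 FC 1.13, adjusted p = 0.554). With the cortical score it was not called there either (log2 FC 7.57, adjusted p = 0.139 by edgeR QL). No fit against NAM was run for group 1 without tumor 6. By edgeR QL with TMM factors, also called in group 1 and not in group 2 were ATP5PF with 0.68, beside 0.34 (adjusted p = 0.058) in group 2, NDUFA8 with 0.66 beside 0.35 (0.0597), ATP5MC1 with 0.53 beside 0.08 (0.768) and NDUFS6 with -0.75 beside -0.51 (0.0649), and UQCRC2, NDUFA12 and NDUFS5, which fell. Other settings did call some of these in group 2. ATP5PF was called with library sizes (adjusted p = 0.0392), by the Mann-Whitney U-test (0.0438) and with the replicate block (0.0415). NDUFA8 was called with library sizes (0.0208) and by the Mann-Whitney U-test (0.0165). NDUFS6 was called by the Wald test (0.0442) and with the replicate block (0.0397), and UQCRC2 by the Wald test and the Mann-Whitney U-test. Some of the calls in group 1 were lost in other settings. ATP5MC1 was lost by the Mann-Whitney U-test (0.163), and by edgeR QL with no low-count filter (0.0594) and with the replicate block (0.0721). The Mann-Whitney U-test also lost UQCRC2 and NDUFA12, and the replicate block lost NDUFS6 (0.0543), UQCRC2, NDUFA12 and NDUFS5.

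Among the calls in group 1 that were lost without the 3 marker-low tumors, which leaves 4 tumors, were NDUFS6 (log2 FC -0.67, adjusted p = 0.116 by edgeR QL), NDUFB11 (-0.34, 0.174), UQCRFS1 (-0.53, 0.0983) and ATP5MC1 (0.56, 0.0673). The cortical score of group 1 did not overlap that of NAM, so a fit with the score as a covariate cannot tell group from score. Over all 15201 genes that fit called 7 higher and 3 lower in group 1 and 522 higher and 312 lower in group 2. It gave a median for the members of 0.61 in group 1 and 0.12 in group 2.

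The direct comparison of the tumor groups asked where they differ from each other, and a single member passed the test used here. Of 51 members, 1 was higher in group 1 than in group 2 (1.96%, against 3.97% of 14666 genes tested) and 0 were lower (against 2.95%), by edgeR QL at an adjusted p under 0.1. At an unadjusted p under 0.05 there were 3 higher and 1 lower, DESeq2's Wald test called 2 higher and 0 lower, and the Mann-Whitney U-test called 0 in either direction. The median log2 FC was 0.09, beside 0.04 for all genes. The gene called was COX7B2, with log2 FC 4.14 (SE 1.09, adjusted p = 0.0425 by edgeR QL), and 3 of 7 group 1 tumors above every group 2 tumor. It has 1 exon block in the count table, so its value is uncertain. The call rested on tumor 6 of group 1, and without that tumor the log2 FC was 1.42 (adjusted p = 0.398) and no member was called. Without tumor 2, 5 or 10 of group 2 COX7B2 missed the filter on low counts and no other member was called. NDUFV1 had log2 FC 0.58 (SE 0.22, adjusted p = 0.143 by edgeR QL), so it was not called, but it was called with library sizes (adjusted p = 0.0873), by DESeq2's Wald test (0.0933), with NAM in the fit (0.0417) and without tumor 1 of group 1 (0.077). NDUFA4L2 had -0.90 (SE 0.47, adjusted p = 0.295 by edgeR QL) and COX4I2 had 0.19 (SE 0.47, adjusted p = 0.867 by edgeR QL), so neither was shown to differ between the groups. Without the 3 marker-low tumors the count was again 1 higher and 0 lower, with COX7B2 at 4.92.

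Other genes of the respiratory chain and its assembly were counted in PPGL against NAM by edgeR QL, beside a median log2 FC of 0.13 for all genes, of which 15.2% fell and 22.3% rose. A further list held electron carriers and NDUFAB1, nuclear-encoded genes outside the name pattern, and most of those tested were lower in the tumors. Of 5 tested, 4 fell (median log2 FC -0.87), with ETFB at -1.47 (adjusted p = 3.58e-06) and ETFA at -1.03 (adjusted p = 8.67e-06), the electron transfer flavoprotein that takes electrons from fatty acid oxidation. ETFDH, which hands them to ubiquinone, had -0.78 (adjusted p = 0.000607), and CYC1, the cytochrome c1 of complex III, had -0.87 (adjusted p = 0.000117). Summed over all 5 genes of the list, the level lay at 627 to 1549 CPM (median 1092) in NAM. It lay at 386 to 613 CPM (median 512) in group 1 and at 471 to 988 CPM (median 579.7) in group 2. All 7 tumors of group 1 lay below every NAM, and 8 of 12 of group 2 did. No share of all genes with such a split by tumor group was computed, here or for complex II below. Tumor 10 of group 2, whose cortex markers lay within the range of NAM, had the 988 CPM. Among the NAMs the sum was lowest in samples 4 and 5, which had the lowest cortical scores. It was highest in sample 8, which had the highest score. The part of cortex content in this sum was not tested. Of the 3 subunits of complex II tested 2 fell, SDHC with -0.84 (adjusted p = 4e-05) and SDHA, the flavoprotein, with -0.72 (adjusted p = 0.00025), while SDHB, the iron-sulfur subunit, had -0.45 (adjusted p = 0.131) and was not called. Their summed level lay at 426 to 729 CPM (median 596) in NAM, 276 to 365 CPM (median 298) in group 1 and 273 to 531 CPM (median 349.8) in group 2, below every NAM in all 7 tumors of group 1 and in 7 of 12 of group 2.

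Assembly factors, which build the complexes without being part of them, were counted by complex. Of 17 complex I factors tested 3 fell and 1 rose (median log2 FC 0.04), among them FOXRED1 with -1.17 (adjusted p = 6.72e-06), NDUFAF1 with -0.98 (adjusted p = 0.00074), NDUFAF7 with -0.58 (adjusted p = 0.00995) and NDUFAF6 with 0.43 (adjusted p = 0.0225). Of 6 complex III factors tested 2 fell (median -0.22), TTC19 with -0.83 (adjusted p = 5.07e-06) and LYRM7, which loads the Rieske protein, with -0.65 (adjusted p = 0.0251), and UQCC3 with -0.36 (adjusted p = 0.11) and UQCC1 with 0.13 (adjusted p = 0.388) were not called. Of 19 complex IV factors tested 4 fell and 1 rose (median log2 FC -0.20), among them COX10, a heme synthesis enzyme, with -0.82 (adjusted p = 0.00162), COA7 with -0.62 (adjusted p = 0.00199), the copper chaperone SCO1 with -0.40 (adjusted p = 0.000925) and TACO1 with 0.45 (adjusted p = 0.0209). Of 6 complex V factors tested 2 fell and 1 rose (median log2 FC -0.06), namely ATPAF2 with -0.71 (adjusted p = 0.00247), TMEM242 with -0.42 (adjusted p = 0.00694) and FMC1 with 0.48 (adjusted p = 0.0121), and DMAC2L with -0.06 (adjusted p = 0.757) was not called.

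Of the 13 mitochondrially encoded subunits 3 fell (median -0.24), all of complex I: MT-ND6 with -0.94 (adjusted p = 0.00563), MT-ND2 with -0.93 (adjusted p = 0.00502) and MT-ND1 with -0.81 (adjusted p = 0.0177), while MT-ATP8 with -0.27 (adjusted p = 0.323) was not called. Their summed level, led by MT-CO1, lay at 42289.7 to 144670 CPM (median 99447) in NAM, 42011 to 123458 CPM (median 56683) in group 1 and 29027 to 174254 CPM (median 86854) in group 2, with wide overlap. Of 61 proteins of the mitochondrial ribosome tested 12 fell and 1 rose (median log2 FC -0.19), with MRPL14 at -1.09 (adjusted p = 3.05e-05), MRPL19 at -0.93 (adjusted p = 0.000155), MRPS5 at -0.73 (adjusted p = 0.00144) and MRPL40 at -0.66 (adjusted p = 0.00134). Of 20 import, carrier and other mitochondrial genes outside the respiratory chain tested 4 fell and 1 rose (median log2 FC -0.13). The phosphate carrier SLC25A3, which supplies the ATP synthase, had -1.40 (adjusted p = 2.2e-05), the cristae protein IMMT -0.75 (adjusted p = 0.000173), citrate synthase CS -0.42 (adjusted p = 0.00309) and the outer membrane channel VDAC3 0.54 (adjusted p = 0.00715). Of 15 regulators of mitochondrial transcription and biogenesis tested 2 rose, TFB1M with 0.77 (adjusted p = 0.000637) and GABPA with 0.44 (adjusted p = 0.0365) (median 0.13). POLRMT with -0.34 (adjusted p = 0.0508) and PPARGC1B with 0.54 (adjusted p = 0.127) were not called.

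Markers of other cell types were counted in PPGL against NAM as well, where 22.3% of all genes rose and 15.2% fell. The chromaffin counts lay near those shares, and lists of so few markers allow no firm comparison. The part of any cell type in the differences of the members was not tested. Of 12 chromaffin markers 3 rose, PHOX2A with 2.17 (adjusted p = 1.75e-07), CYB561 with 1.15 (adjusted p = 0.00166) and SYP with 0.98 (adjusted p = 0.00236), and PNMT fell with -1.94 (adjusted p = 0.0177) by edgeR QL. Of 8 pericyte and smooth muscle markers 3 rose, NOTCH3 with 1.64 (adjusted p = 0.00222), ACTA2 with 1.45 (adjusted p = 0.044) and RGS5 with 1.14 (adjusted p = 0.0447), and TAGLN with 1.23 (adjusted p = 0.0795) was not called. Of 6 fibroblast markers 4 rose, COL1A1 with 3.72 (adjusted p = 0.0011), COL3A1 with 3.09 (adjusted p = 0.00189), COL1A2 with 1.97 (adjusted p = 0.0117) and LUM with 2.43 (adjusted p = 0.0249). Of 7 endothelial markers 4 fell, TEK with -1.14 (adjusted p = 0.000865), KDR with -1.09 (adjusted p = 0.00579), VWF with -0.73 (adjusted p = 0.0148) and EMCN with -0.85 (adjusted p = 0.0222). Of 9 leukocyte markers tested 3 rose, CD4 with 2.88 (adjusted p = 0.00863), CD3E with 1.93 (adjusted p = 0.0164) and CD8A with 1.64 (adjusted p = 0.0391), and CSF1R fell with -0.72 (adjusted p = 0.0309). All 3 erythroid markers tested, HBM, ALAS2 and AHSP, rose, and their list summed to at most 0.839 CPM in NAM and 0.201 to 65.0 CPM in PPGL. Of 3 striated muscle markers tested CKM fell with -2.02 (adjusted p = 0.041), and MYH7 with 0.93 (adjusted p = 0.139) and ACTA1 with -0.60 (adjusted p = 0.217) were not called. The 4 Schwann and sustentacular cell markers and the 3 fat cell markers tested did not pass the threshold, and the first list summed to 31.1 to 102 CPM in NAM (median 50.6) and 1.17 to 131 CPM in PPGL (median 13.1), below every NAM in 14 of 19 PPGLs.

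The summed endothelial markers, led by PECAM1, lay at 430.2 to 1228 CPM (median 698) in NAM, 207 to 1039.8 CPM (median 431) in group 1 and 252 to 883 CPM (median 426) in group 2. The summed fibroblast markers, led by COL3A1, lay at 266 to 658 CPM (median 411) in NAM, 154 to 2382 CPM (median 511) in group 1 and 407 to 25288 CPM (median 955) in group 2. Both overlapped NAM in each tumor group. The summed leukocyte markers, led by CD79A, lay at 517 to 869 CPM (median 735) in NAM, 363 to 1461 CPM (median 531) in group 1 and 233 to 1526 CPM (median 488) in group 2.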

How the data were processed

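Stranded mRNA libraries of 29 canine samples were sequenced, and the authors deposited raw read counts per gene over exons, on the CanFam3.1 genome. The submitters' processing notes name FastQC, STAR, Picard and HTSeq without versions. The labels are not clear on which tool made the counts, and its strand setting is not given. From these counts, samples were grouped by their labels and edgeR 4.0.16 (limma 3.58.1, R 4.3.3) was run over all genes: filterByExpr with a minimum count of 10 and a minimum total of 15, TMM factors, glmQLFit and glmQLFTest, with Benjamini-Hochberg adjustment over all genes tested. The threshold was an adjusted p of 0.05 against NAM, and 0.1 between tumor groups. These adjusted p limits are the study's, but its Mann-Whitney U-test and its further demand of a log2 FC past 3 in size were not part of the calls here. All 29 samples entered the fits against NAM, with 2 or 3 groups, and the 19 tumors the fit between groups. Alternatives were DESeq2 1.42.0 size factors and Wald test, library sizes, the Mann-Whitney U-test, other filters, a cortical score covariate, a replicate block and leaving out samples. No within-group pair of samples held identical counts.

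The members and gene lists were chosen with earlier results of these data known. Named members were, by rule, up to 10 per direction with the largest log2 FC among those called in PPGL against NAM, up to 5 per direction in group 1 against group 2, a list of core subunits with ATP5IF1, isoform pairs, the highest and lowest member per kb in each complex, and any member called in opposite directions in the tumor groups, of which there was none. For other lists the 4 genes with the smallest p were named where the list held a called gene. Not every gene that meets these rules is named. The depth per sample and the limit of a count of 0 are given with the results. With several clinics and no clinic in the labels, batches could not be examined.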

Additional observations from a re-analysis of the deposited data

Results flagged for a closer look

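Of 64 groups of values examined for a sample far from the others, 2 held one, and chance flags about 1 in 20 groups. ATP5MD lay at 0.0394 CPM in NAM 10 and at 0 in the other 9 NAMs, a value below the limit that 3 counts set. Tumors 1 and 7 of PPGL group 2 held 0.0422 and 0.0481 CPM, also below that limit. COX7B2 lay at 37.0 CPM in tumor 6 of PPGL group 1, where the nearest tumor of the group lay at 2.93 CPM. COX7B2 was also the only member called between the tumor groups in the fit of the tumors alone, by a log2 FC of 4.14 (adjusted p = 0.0425 by edgeR QL). That call rests on tumor 6: without it the log2 FC was 1.42. With NAM in the fit NDUFS3 and NDUFV1 were called higher in group 1 as well, and NDUFS5 lower. COX7B2 has 1 exon block in the count table, so its value is uncertain.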

How the results depend on the processing

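In PPGL against NAM, DESeq2 size factors, DESeq2's Wald test, no filter and a filter of 1 CPM each called the same 6 members higher and the same 16 lower, library sizes gave 7 and 14 (3699 and 1949 of all genes, against 3295 and 2246 with TMM), and the Mann-Whitney U-test 6 and 18 (2823 and 2921). The cortical score, added to the fit, gave 3 and 4, and the cause was not tested. In group 1 against NAM the counts of 7 higher and 11 lower became 7 lower with library sizes, 17 lower with the Wald test, 2 higher and 5 lower with the Mann-Whitney U-test, and 6 lower without the 3 tumors low in chromaffin markers, a setting chosen after seeing the data that leaves fewer samples. Over all genes edgeR QL with TMM called 3194 higher and 2137 lower there, library sizes 3820 and 1774, and the Mann-Whitney U-test 1452 and 1853. With the cortical score edgeR QL called 0 in either direction (18 higher and 0 lower at an unadjusted p under 0.05), where it called 7 higher and 3 lower of all 15201 genes, and the median was 0.61. In group 2 against NAM the counts of 4 higher and 11 lower became 7 and 16 with the Mann-Whitney U-test (2573 and 2733 of all genes, against 2798 and 2207), 4 and 16 with the Wald test and 6 and 9 with library sizes (3009 and 1931). With the cortical score edgeR QL called 2 higher and 0 lower (10 and 2 at an unadjusted p under 0.05), with median 0.12. Between the tumor groups 2 members were higher with library sizes and with the Wald test, 0 by the Mann-Whitney U-test (1 higher and 2 lower at an unadjusted p under 0.05), 0 by edgeR QL with the filter of 1 CPM, which removes COX7B2 (2 and 1), and 0 with the cortical score (10 and 0, with 0 called over all genes too, median 0.46), and 3 higher and 1 lower with NAM in the fit.

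The replicate block used sample numbers that do not pair animals: same-numbered samples correlated by -0.23 to 0.25, over 0.1 in 2 of 24 pairs. With the replicate block the counts were 5 higher and 12 lower in PPGL against NAM (2273 and 2380 of all genes), 3 and 2 in group 1 (1921 and 2015), 4 and 9 in group 2 (1987 and 2193), and 0 by edgeR QL between the tumor groups (1 and 1 at an unadjusted p under 0.05), where 10 and 37 of all 14666 genes were called, against 582 and 433 without the block. In PPGL against NAM it lost the calls of NDUFA4L2, NDUFA10, NDUFS1, NDUFV2 and ATP5F1B, and library sizes those of NDUFS1 and ATP5F1B. It turned COX7B2 in PPGL to -0.13 and COX4I2 between the tumor groups to -0.30.

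Signs turned as follows, and the cause was not tested. In PPGL against NAM ATP5F1E went to 0.0554 with library sizes, 0.00177 with the filter of 1 CPM, 0.28 with the cortical score and 0.0496 without the 3 tumors, and COX8A to 0.0223 with library sizes. The cortical score moved COX5B to 0.15 and NDUFS4 to -0.0443. In group 1 against NAM NDUFV1 went to 0.0271 with library sizes. There the cortical score turned 5 named members that had been called lower: NDUFS8 from -0.88 to 0.57, NDUFS6 from -0.75 to 0.76, UQCRC1 from -0.68 to 0.23, UQCRFS1 from -0.53 to 0.61 and NDUFB11 from -0.46 to 0.69, none of them called then. Of members not called it gave COX4I1 0.41, NDUFA4L2 -0.62 and NDUFV1 0.56, and in group 2 COX7B2 1.4991 and NDUFS6 0.0683. Between the tumor groups COX4I2 was -0.93 with the cortical score and -0.42 without the 3 tumors. Leaving out each sample in turn gave 6 to 8 members higher and 13 to 18 lower in PPGL against NAM, and 0 to 2 higher between the tumor groups. In these fits ATP5F1E ranged from -0.0662 to 0.0685, COX8A from -0.11 to 0.0101 and COX4I2 between the tumor groups from -0.14 to 0.40. The members named as called in PPGL against NAM kept their sign in that comparison under all these settings. Without division by exon length the mean COX4I2 share was 16.8% in NAM, 50.5% in group 1 and 60.4% in group 2. No sample was left out singly in group 1 or group 2 against NAM.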
